A study of Mus musculus with 19 samples.

Results

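The genes described here encode the core machinery of MHC class I antigen presentation in the mouse. They were chosen by name, as a list of 10 genes: the class I heavy chains H2-K1, H2-D1, H2-Q1 and H2-Q2, the light chain B2m, the peptide transporter subunits Tap1 and Tap2, the loading factor Tapbp, and the immunoproteasome subunits Psmb8 and Psmb9. The table of embryonic livers held 8 of them among 13549 genes, without H2-Q1 and H2-Q2, and the tumour files held 10 of 10 among 17606 gene IDs. Every member present passed the filters on low values, so that 8 were tested among 13316 genes in the livers and 10 among 12829 genes in the tumours.

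The study concerned fibrolamellar carcinoma, a tumour of the liver whose hallmark is the DNAJB1-PRKACA fusion, which joins part of a chaperone to the kinase PKA, and used mouse models of it. In the first experiment livers were taken on embryonic day 18.5 from 5 control embryos and from 4 embryos labelled DNAJ1B-PKA_Overexpression, called fusion livers below. The latter came from crosses of Rosa26 LSL-DNAJB1-PKA-GFP mice, in which a DNAJB1-PRKACA-GFP cDNA sits behind a stop cassette, with Alb-Cre mice, whose Cre recombinase is driven by the albumin promoter in hepatocytes, while the whole liver, with its blood-forming cells, was sequenced. Which alleles the control embryos carried, Alb-Cre or the unrecombined transgene among them, is not given in the sources used here. In the second experiment cells of 1 mouse line, FL8, were implanted in capsules of methacrylated gelatin under the skin of NSG mice, which lack mature T, B and NK cells but keep macrophages and neutrophils. The mice were randomized at an average tumour size of 75 mm3 and given 0.5% methocel as the vehicle (5 tumours, labelled Control Carrier) or palbociclib, which blocks the cell cycle kinases CDK4 and CDK6, by gavage at 75 mg/kg on 3 consecutive days with 4 days without treatment (5 tumours). Tumour and host cells are both murine, and the files do not separate their reads.

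Class I molecules show peptides from the inside of a cell to CD8 T cells. Proteasomes cut cytosolic proteins into peptides, the TAP1/TAP2 transporter moves these into the endoplasmic reticulum, and tapasin, the product of Tapbp, holds the transporter next to an empty heavy chain paired with beta-2 microglobulin until a peptide is bound. Hepatocytes carry little class I at rest, and interferon gamma raises the whole set through IRF1 and the transactivator NLRC5, including the immunoproteasome subunits that take the place of constitutive catalytic subunits. H2-K1 and H2-D1 are the classical, highly polymorphic heavy chains. The H2-Q genes encode related heavy chains with narrower expression.

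The livers had totals between 7660736 and 45591301 counts and the tumours between 2955729 reads, in vehicle 5, and 43141761 reads. Prkaca, the kinase gene of the fusion, served as the check of the liver labels. Its counts were not split into transgene and endogenous reads. It was at 36.3 to 50.5 counts per 1000000 (CPM) in control and 52.0 to 114 CPM in fusion livers, with no overlap (log2 fold change 0.78, edgeR adjusted p = 0.0379). The log2 fold change was 0.49 without fusion 6 and 0.19 within the batch of higher ribosomal protein share described next. Of fits without 1 liver the call of Prkaca held only without control 2, fusion 8 or fusion 9. With sex as a covariate it was not called (edgeR adjusted p = 0.0979). Dnajb1, the other gene of the fusion, was at 41.7 to 52.9 CPM in control and 51.7 to 74.3 CPM in fusion livers, which overlapped (log2 fold change 0.42, edgeR adjusted p = 0.0493, called in 2 of 9 fits without 1 liver, those without control 5 or fusion 9). The share of ribosomal protein genes was 9.68% to 10.1% in 4 livers (control 1 and 2, fusion 8 and 9) and 6.16% to 7.85% in the other 5. This split is treated as a library batch, although no label names one. Mitochondrial genes held 46.6% of the reads of vehicle 1 and 1.24% to 6.47% of those of the other 9 tumours. The summed macrophage markers were at 1360 CPM in vehicle 1 and 70.8 to 329 CPM in the others, and the summed class II presentation genes were at 1166 CPM in vehicle 1 and 54.2 to 114 CPM in the others.

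On GRCm38, 9 of the 10 genes lie in the MHC region of chromosome 17 and B2m lies on chromosome 2. From one side to the other the GENCODE M21 annotation places Tapbp at chr17:33915899-33929292, H2-K1 at chr17:33996017-34000347, Psmb9 at chr17:34181987-34187764, Tap1 at chr17:34187553-34197225, Psmb8 at chr17:34197721-34201454, Tap2 at chr17:34203527-34216321, H2-D1 at chr17:35262730-35267499, H2-Q1 at chr17:35320405-35325099 and H2-Q2 at chr17:35342242-35346762. B2m is at chr2:122147686-122153083. H2-K1 and Psmb9 are on the minus strand and the others on the plus strand. All values are sums over exons of a gene. Exons of Tap1 and Psmb9 overlap by 212 bases on opposite strands, and no source used here says whether counting used strand, so that reads of this stretch may be given to either gene. It is 3.87% of the exon bases of Tap1 and 5.79% of those of Psmb9.

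Per kilobase of exon the members spanned a wide range of levels, in much the same order in both tissues. The length used joins all annotated exons of a gene and can exceed that of its coding transcript. For Psmb9 it was 3660 bases, while the coding transcript held 1303 windows of 50 bases. The order among the members of lower level depends on this choice. In control livers B2m stood first at 441 ± 34.0 CPM per kb (SD, n = 5), followed by H2-K1 at 116 ± 12, Tapbp at 39.6 ± 8.28, H2-D1 at 38.7 ± 4.19, Tap2 at 12.7 ± 2.67, Psmb8 at 9.17 ± 1.42, Psmb9 at 5.91 ± 1.30 and Tap1 at 5.48 ± 0.827 CPM per kb (each SD, n = 5). Tapbp and H2-D1, and Psmb9 and Tap1, differed by less than their spread. In vehicle tumours B2m again stood first at 1645 ± 472 CPM per kb (SD, n = 5), followed by H2-K1 at 397 ± 143, H2-D1 at 313 ± 17.0, Tapbp at 50.1 ± 11.5, H2-Q1 at 28.7 ± 10.3, Psmb8 at 14.8 ± 8.27, Tap1 at 7.36 ± 1.43, Tap2 at 7.22 ± 2.5, Psmb9 at 5.91 ± 4.06 and H2-Q2 at 0.539 ± 0.314 CPM per kb (each SD, n = 5). The neighbours H2-K1 and H2-D1, and the group from Psmb8 down to Psmb9, lay within each other's spread. The 2 data sets were processed separately, so that no member's level was compared between livers and tumours.

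In the fusion livers 7 of the 8 members had a negative log2 fold change against controls and B2m a positive one. Only Tap1 passed the test, with a fall of 31.9% in its mean. The background was large, since 12.8% of the genes tested were called (edgeR, adjusted p under 0.05), 5.99% higher and 6.81% lower, and 51.7% of the genes had a negative and 48.3% a positive fold change. The median log2 fold change was -0.31 over the 8 members and -0.01 over all genes. The groups overlapped for each of the 8 members, whereas 16.5% of all genes had no overlap, 8.15% with fusion livers lower and 8.37% with them higher. The count of 7 negative members was the same in each of 7 alternatives and 9 fits that left out 1 liver. These members are not independent of each other, since their levels varied together across the livers. In whole livers, fewer cells of a type and less RNA per cell cannot be told apart.

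The heavy chains and their light chain are described first, because they make up the molecule at the cell surface. Their promoters are shown since H2-K1 and H2-D1 are known for sharing an upstream control region, read by factors of the NF-kappaB, interferon regulatory factor and NLRC5 pathways. The 200 bases before the start site of H2-K1 (chr17:34000348-34000547, minus strand) and of B2m (chr2:122147487-122147686, plus strand) are given 5′ to 3′ from RefSeq on GRCm38.p6. Capitals mark, in H2-K1, the kappaB palindrome that begins with GGGGA and a match to GAANNGAAA (a short core of the interferon-stimulated response element). They also mark TGACG there, the first part of the complete cAMP response element TGACGTCA. In B2m they mark the longer core of the interferon-stimulated response element, with 1 more A than the short one, and TGACG. All motifs were searched on both strands.
H2-K1: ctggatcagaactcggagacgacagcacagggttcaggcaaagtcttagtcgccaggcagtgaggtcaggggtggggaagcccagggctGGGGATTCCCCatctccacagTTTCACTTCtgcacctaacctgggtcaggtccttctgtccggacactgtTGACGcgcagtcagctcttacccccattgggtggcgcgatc
B2m: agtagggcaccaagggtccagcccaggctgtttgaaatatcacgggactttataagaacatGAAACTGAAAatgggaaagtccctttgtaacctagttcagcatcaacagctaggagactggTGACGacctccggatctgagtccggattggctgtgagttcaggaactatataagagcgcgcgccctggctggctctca
Windows of 300 bases around the start site were at hand for 8 of the 10 members. The kappaB palindrome was found in those of H2-K1 and H2-D1 and in 10 of 32851 windows of all genes (0.0304%). GAANNGAAA was found in the same pair of members and in 7.52% of all windows, the longer core in B2m and in 3.44%, and TGACG in B2m, H2-D1, H2-K1, Psmb9 and Tap1 and in 20.8%. The complete cAMP response element TGACGTCA was in no member window and in 1.79% of all windows. Every TGACGTCA match also counts as a TGACG match.

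In H2-K1 and H2-D1 the kappaB palindrome and the interferon-type element keep the same spacing. The stretch of 30 bases that spans both is shown for H2-K1 (chr17:34000429-34000458, minus strand) and H2-D1 (chr17:35262923-35262952, plus strand), with the matches in capitals.
H2-K1: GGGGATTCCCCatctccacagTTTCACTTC
H2-D1: GGGGATTCCCCatctcctcagTTTCACTTC
The pair was identical at 29 of 30 bases. Over their coding sequences H2-K1 and H2-D1 were identical at 91.5% of 1077 aligned bases, and 1.79% of the 150-base windows of the H2-D1 transcript and 0% of those of H2-K1 occurred unchanged in another gene. Of the 50-base windows 14.3% for H2-D1 and 8.79% for H2-K1 did so. A motif match is only a description of these letters.

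H2-K1 was at 397, 340, 342, 309 and 313 CPM in controls 1 to 5 and at 272, 317, 310 and 277 CPM in fusion livers 6 to 9. The 2 lowest values belonged to fusion livers and the groups overlapped, with a log2 fold change of -0.21 ± 0.13 (SE; by edgeR, adjusted p = 0.285). H2-D1 was at 106, 104, 112, 89.7 and 87.4 CPM in controls and at 61.1, 80.6, 103 and 89.6 CPM in fusion livers. Fusion 6 was the lowest of all 9, and the log2 fold change of H2-D1 was -0.25 ± 0.16 (SE; by edgeR, adjusted p = 0.305). B2m, which also pairs with non-classical heavy chains and the neonatal Fc receptor, was at 341, 360, 401, 412 and 381 CPM in controls and at 474, 388, 473 and 405 CPM in fusion livers. The log2 fold change of B2m was 0.20 ± 0.13 (SE; adjusted p = 0.324 in edgeR), so that none of the 3 components of the classical molecule passed the test.

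The transporter and its loading factor showed the lowest p-values. Tap1, the first half-transporter, was at 34.0, 31.6, 32.0, 30.1 and 22.3 CPM in controls 1 to 5 and at 17.0, 22.4, 19.5 and 22.8 CPM in fusion livers 6 to 9. Control 5 lay among the fusion livers, and the other 4 controls lay above all of them. The mean was 30.0 ± 4.53 CPM (SD, n = 5) in controls and 20.4 ± 2.71 CPM (SD, n = 4) in fusion livers, which is -0.56 ± 0.15 as a log2 fold change (SE; adjusted p = 0.0285 in edgeR). The call was lost when single livers were left out: without control 1, 2, 3 or 4 or fusion 6, 7 or 8 the adjusted p lay between 0.0523 and 0.0811, and without control 5 or fusion 9 the call held. Within the batch of higher ribosomal protein share the log2 fold change was -0.62 ± 0.15 (SE; by edgeR, adjusted p = 0.0207), and within the other batch it was -0.53 ± 0.18 (SE; by edgeR, adjusted p = 0.0567).

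Tap2, the partner subunit, was at 55.0, 59.3, 50.2, 40.0 and 35.3 CPM in controls and at 25.0, 32.8, 41.8 and 42.5 CPM in fusion livers. The values overlapped, at a log2 fold change of -0.43 ± 0.19 (SE; adjusted p = 0.163 in edgeR). Tapbp was at 159, 186, 141, 121 and 111 CPM in controls and at 94.1, 94.2, 125 and 135 CPM in fusion livers, with a log2 fold change of -0.36 ± 0.18 (SE; by edgeR, adjusted p = 0.211). In both genes the fusion livers of the batch of higher ribosomal protein share, 8 and 9, overlapped with the controls of the other batch, 3 to 5, but lay below the controls of their own batch.

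Single livers weighed on the members' values. Without fusion 6 the log2 fold changes were -0.12 for H2-D1, -0.28 for Tap2, -0.11 for Psmb8 and -0.26 for Psmb9. Without control 1 they were -0.14 for H2-K1 and -0.13 for Psmb8, and without control 2 that of Tapbp was -0.23.

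The order within batches held for other members too. Within the batch of higher ribosomal protein share the fusion livers lay below the controls for 7 of 8 members, all but B2m, against 32.7% of all genes. Within the other batch they did so for 4 of 8, H2-D1, Tap2, Tapbp and Psmb9, against 26.4% of all genes. The same 4 were below in both batches, against 15.7% of all genes. By Xist, that second batch held male controls (3) and female fusion embryos (2), so that sex and genotype cannot be told apart there. With the batch as a covariate edgeR called 4 of the 8 members, all lower: Tap1 (log2 fold change -0.57, adjusted p = 0.00406), Tap2 (-0.49, adjusted p = 0.00630), Tapbp (-0.40, adjusted p = 0.00766) and Psmb9 (-0.54, adjusted p = 0.0116). The background was larger in that fit, with 32.6% of all genes called and 16.5% called lower. Within the batch of higher ribosomal protein share edgeR called Tap1 and Tap2 lower, beside 20% of all genes called and 9.8% called lower. Within the other batch it called Psmb9, Tap2 and Tapbp lower, beside 21.8% of all genes called and 11.2% called lower.

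**Figure D1:**
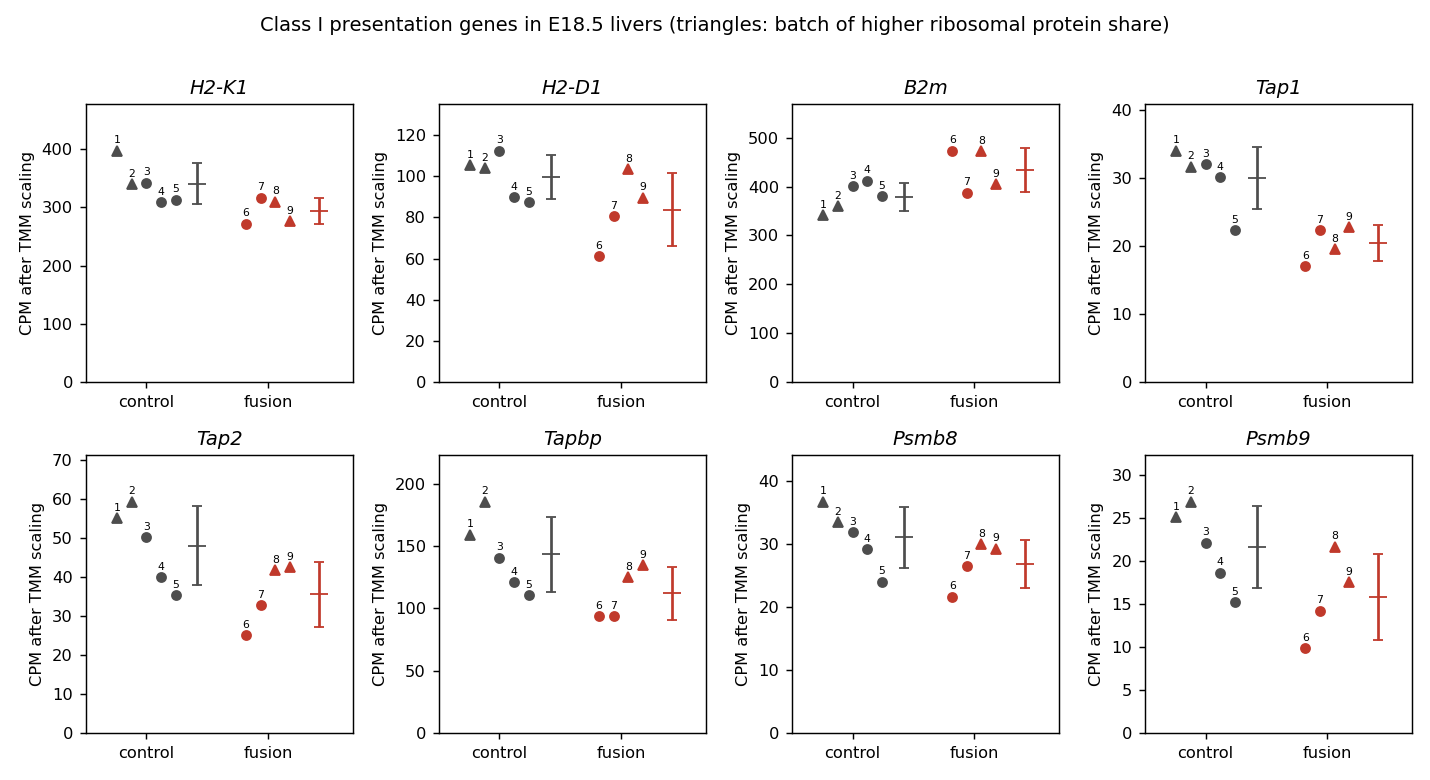
Level of each member in each liver, in CPM after TMM scaling (y axis), by group (x axis); points carry the embryo's number, triangles are the 4 livers with a higher ribosomal protein share, and bars are the mean ± SD. The groups overlap in every panel, and Tap1 has 4 of 5 controls above all fusion livers.

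Psmb9 shares its promoter with Tap1. The genes lie head to head with 225 bases between their RefSeq start sites, and their 300-base windows have 275 bases in common. A stretch of 30 bases around the single TGACG match between them (chr17:34187457-34187486, plus strand, in the direction of Tap1) is shown because it lies before both start sites, with the match in capitals.
Tap1: gcccagagacaggTGACGacagagggtcct
Psmb9, whose product replaces the constitutive subunit Psmb6, was at 25.1, 26.9, 22.1, 18.7 and 15.2 CPM in controls and at 9.84, 14.2, 21.7 and 17.5 CPM in fusion livers. The groups overlapped and the log2 fold change was -0.45 ± 0.23 (SE; by edgeR, adjusted p = 0.216). Psmb8, whose product replaces Psmb5, was at 36.7, 33.5, 31.8, 29.1 and 24 CPM in controls and at 21.6, 26.5, 29.9 and 29.2 CPM in fusion livers. For Psmb8 the log2 fold change was -0.21 ± 0.15 (SE; adjusted p = 0.362 in edgeR).

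Set against the constitutive subunit that each replaces, the immunoproteasome subunits separated the groups. How often ratios of other gene pairs separate these livers was not measured. Of single genes 16.5% had no overlap between the groups. The log2 ratio of Psmb8 to Psmb5 was -1.29, -1.30, -0.95, -1.13 and -1.14 in controls 1 to 5 and -1.41, -1.44, -1.87 and -1.78 in fusion livers 6 to 9. Every fusion liver lay below every control, with a difference of -0.46 between the group means. The log2 ratio of Psmb9 to Psmb6 was -3.16, -3.00, -2.85, -3.13 and -3.30 in controls and -4.10, -3.79, -3.73 and -3.80 in fusion livers, a difference of -0.77 with no overlap. Psmb10, the third inducible subunit and no member of the list, was compared with Psmb7 in the same way. This log2 ratio was -0.53, -0.45, -0.67, -1.0 and -1.01 in controls and -1.92, -1.51, -1.39 and -1.29 in fusion livers, a difference of -0.79 with no overlap.

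For each of the 3 ratios the two-sided exact permutation test over 126 splits of the 9 livers gave p = 0.00794, the smallest it can give, and an adjusted p of 0.0119 over the 6 ratio tests of both experiments. The direction was the same within both batches, with differences of -0.53 and -0.35 for Psmb8 over Psmb5, -0.68 and -0.85 for Psmb9 over Psmb6, and -0.85 and -0.82 for Psmb10 over Psmb7 (the batch of higher ribosomal protein share first). Leaving out 1 liver lost the call only for Psmb10 over Psmb7 without fusion 6 (exact permutation p = 0.0357, adjusted p = 0.0536). Numerator and denominator moved apart. The log2 fold changes of Psmb5, Psmb6 and Psmb7 were 0.28, 0.30 and 0.56, of which only that of Psmb7 passed the test (edgeR adjusted p = 0.0491), and that of Psmb10 was -0.21 (edgeR adjusted p = 0.630). Of the 50-base windows of Psmb5, 57.1% occur unchanged in pseudogene or overlapping annotations (7.07% of the 150-base windows), so that its counts depend on how shared reads were treated.

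**Figure D2:**
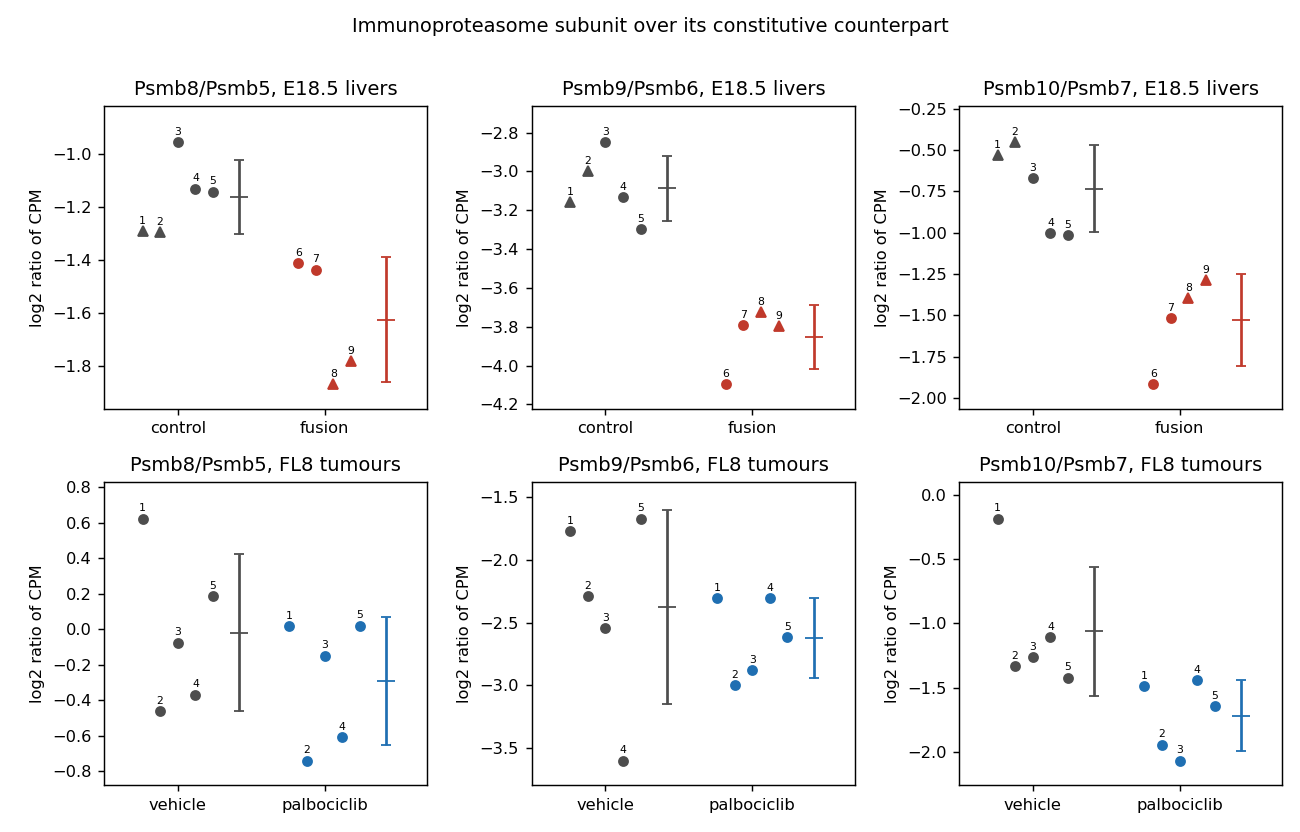
Log2 ratio of each immunoproteasome subunit to its constitutive counterpart (y axis) in each liver (top) and tumour (bottom), by group (x axis); points carry the replicate number, triangles are the livers of the batch of higher ribosomal protein share, and bars are the mean ± SD. All 3 ratios separate fusion from control livers, and in the tumours only Psmb10 over Psmb7 separates the treatments, with vehicle 1 at -0.19 far above the other vehicle tumours.

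Other genes of the pathway were taken from lists. Among all genes edgeR called 12.8%, 5.99% higher and 6.81% lower. Of 10 further class I heavy chains tested, 1 fell and 0 rose: Cd1d1, which presents lipids to NKT cells, fell from 25.4 ± 2.87 CPM (SD, n = 5) to 6.33 ± 1.98 CPM (SD, n = 4) with a log2 fold change of -2.03 (edgeR adjusted p = 0.000275), and the call held without any 1 liver. Fcgrt, the heavy chain of the neonatal Fc receptor (log2 fold change -0.55, adjusted p = 0.0541), H2-T23, the Qa-1 heavy chain (-0.48, adjusted p = 0.0813), and H2-Q4 (-0.93, adjusted p = 0.0813) did not pass in edgeR. H2-Q10, a secreted heavy chain of liver, was the highest of the H2-Q genes at 728 to 1060 CPM in controls and 937 to 1301 CPM in fusion livers (log2 fold change 0.29, edgeR adjusted p = 0.265). Of 10 further loading and trimming factors 1 fell and 0 rose. Tapbpl, the gene of the tapasin-related peptide editor TAPBPR, was at 11.4 to 19.3 CPM in controls and 7.66 to 10.2 CPM in fusion livers (log2 fold change -0.83, edgeR adjusted p = 0.0144) and kept its call without any 1 liver. Within the batch of higher ribosomal protein share it did not pass (edgeR adjusted p = 0.0793).

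Among 21 regulators of class I genes 2 fell and 1 rose, beside 12.8% of all genes called by edgeR. Nlrc5, the transactivator of class I promoters, was low, at 1.96 to 2.96 CPM in controls and 1.15 to 1.72 CPM in fusion livers (log2 fold change -0.76, edgeR adjusted p = 0.0345), and its call held in only 1 of 9 fits that left out a liver, that without control 1. Tyk2, a kinase of interferon receptors, fell by 0.45 on the log2 scale (edgeR adjusted p = 0.0234; held without control 2, 4 or 5 or fusion 9), and Ezh2, a histone methyltransferase, rose by 0.44 (edgeR adjusted p = 0.0163; held in 9 of 9). Irf1 had a log2 fold change of -0.26 (edgeR adjusted p = 0.212). Of 16 interferon-stimulated genes 2 rose and 1 fell: Isg15 by 0.71 (adjusted p = 0.0456) and Usp18, which removes the ISG15 protein, by 0.50 (adjusted p = 0.0364) upwards, and Igtp, an immunity-related GTPase, by -0.48 (adjusted p = 0.0299), each called by edgeR in 2 or 3 of the 9 fits without 1 liver. Isg15 had a log2 fold change of 1.28 (edgeR adjusted p = 0.00487) in the batch of higher ribosomal protein share and 0.30 (adjusted p = 0.0949) in the other batch. Usp18 was at 0.24 (edgeR adjusted p = 0.312) in the former and 0.72 (adjusted p = 0.00208) in the latter. Whether the batches differed was not tested. With sex as a covariate Usp18, Igtp and Nlrc5 were not called (edgeR adjusted p = 0.0905, 0.0587 and 0.0903). The fits without 1 liver that kept the calls were those without control 1 or 4 for Isg15, control 2 or fusion 8 or 9 for Usp18, and control 5 or fusion 9 for Igtp. Of 11 constitutive proteasome genes 2 rose, Psma1 by 0.63 (edgeR adjusted p = 0.0318) and Psmb7. Psma1 kept its call without control 1, control 4 or fusion 9, and Psmb7 without control 2 or fusion 6. With sex as a covariate Psmb7 was not called (edgeR adjusted p = 0.0802). Its log2 fold change was 0.28 in the batch of lower ribosomal protein share. Of 5 further immunoproteasome and activator genes and of 7 class II presentation genes 0 passed in edgeR and 0 in DESeq2, with 0 and 1 at an unadjusted p under 0.05. An unadjusted p under 0.05 was reached by 29.3% of all genes. DESeq2 called 4 of the 10 further heavy chains and 3 of the 10 loading and trimming factors, and it called 18.4% of all genes.

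Markers of other cells were measured beside these genes, and their part in the results was not tested. Leukocyte, macrophage, neutrophil, endothelial and erythroid lists had 0 called genes in edgeR, with 1, 1, 1, 2 and 0 at an unadjusted p under 0.05, and DESeq2 called 1 macrophage gene. Of all genes 12.8% were called by edgeR, 29.3% had an unadjusted p under 0.05 in edgeR, and 18.4% were called by DESeq2. With the batch as a covariate, the fit that called 4 members, edgeR called 1 of 3 leukocyte, 2 of 8 macrophage, 3 of 7 neutrophil, 4 of 7 endothelial and 0 of 5 erythroid genes. It called 32.6% of all genes in that fit. The summed macrophage markers (8 of 8 in the table) were at 775 to 859 CPM in controls and 610 to 784 CPM in fusion livers. The summed leukocyte markers were at 50.9 to 58.7 and 52.1 to 67.5 CPM (4 of 8 in the table, without Cd3e, Cd8a, Cd8b1 and Cd4), and the summed erythroid markers at 3064 to 5463 and 3463 to 4627 CPM. The summed neutrophil markers (7 of 7 in the table) were at 7380, 7758, 6986, 6005 and 5453 CPM in controls 1 to 5 and at 4332, 5739, 6525 and 6465 CPM in fusion livers 6 to 9. Of these markers 6 of 7 had a negative log2 fold change, with a median of -0.26. Their sum was highest in controls 1 to 3 and lowest in fusion 6, as was the members' mean described further on. This list was singled out after its values were seen, and whether it goes together with the members was not tested. Of 7 fibroblast markers Col1a1 (log2 fold change -0.80, edgeR adjusted p = 0.0227) and Col1a2 (-0.57, edgeR adjusted p = 0.0467) fell. Col1a1 lost its call without control 3, control 5 or fusion 8, and Col1a2 kept it only without control 1 or 2. With sex as a covariate 0 of the 7 fibroblast genes were called. The hepatocyte markers defined the tissue, at a sum of 153962 to 181698 CPM in controls and 166323 to 195774 CPM in fusion livers, while Afp (0.86) and Cps1 (0.85) rose and Apoa1 (-0.89) fell (edgeR adjusted p = 0.0178, 0.0115 and 0.0382). Of fits without 1 liver Apoa1 kept its call only without control 4 or fusion 9, and with sex as a covariate it was not called (adjusted p = 0.0607).

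In the tumours no member passed the test. limma on log2(CPM + 1) called 0 of 12829 genes (0%), at a smallest adjusted p of 0.953, and 586 genes (4.57%) had an unadjusted p under 0.05, among them 1 member, H2-Q1. The other 9 members had log2 fold changes between -0.35 and 0.16 with overlapping groups, and 7 of the 10 were negative, against 31.2% of all genes. The median over the 10 was -0.07 against 0.14 over all genes. Both turned on single libraries: without vehicle 5 the members had 4 of 10 negative and a median of 0.05, and without palbociclib 2 or 3 they had 5 of 10 negative. By edgeR on reads 9 of 10 were negative, where the median over all genes was -0.05. The 0.14 came with the deposited scale, which includes the mitochondrial reads, and with those genes left out of the total the median was 0.01 over all genes and -0.20 over the members. The SEs of the members were 0.23 to 0.36 on the log2 scale, so that differences of that size were not detectable. Much larger ones were not called either, since H2-Q1 at a log2 fold change of 1.47 had a limma adjusted p of 0.953.

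H2-Q1 was the member that differed most. It was at 40.6, 94.8, 90.6, 118 and 66.7 CPM in vehicle tumours 1 to 5 and at 123, 186, 250, 212 and 382 CPM in palbociclib tumours 1 to 5. Every palbociclib tumour lay above every vehicle tumour, as for 0.834% of all genes. The reverse held for 0.101% of all genes, so that 0.935% had no overlap. The means were 82.2 ± 29.6 CPM and 231 ± 96.5 CPM (SD, n = 5 each), and the log2 fold change was 1.47 ± 0.32 (SE; limma adjusted p = 0.953, unadjusted p = 0.000297 in the same fit). On whole reads recovered from the CPM, edgeR gave 1.40 with an adjusted p of 0.904 and called 0 genes, and DESeq2 gave 1.39 with an adjusted p of 0.00470 and called 8 genes (0.0468%), of which H2-Q1 was 1. Across the 18 alternatives and fits without 1 tumour, the log2 fold change of H2-Q1 lay between 1.09, without vehicle 1 and vehicle 5, and 1.67, without palbociclib 1.

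H2-Q1 shares sequence with other class I genes, so that its reads are uncertain where copies are identical. The coding sequence of H2-Q1 was identical to that of H2-Q2 at 85.9% and to that of H2-D1 at 88.2% of aligned bases. Of the 150-base windows of its transcript, the length of the reads, 4.64% occurred unchanged in H2-Q2 or H2-D1. Of its 50-base windows 22.9% occurred unchanged in another gene. H2-Q2 itself was at 0.603 to 2.24 CPM in vehicle and 0.467 to 2.03 CPM in palbociclib tumours (log2 fold change -0.10, limma adjusted p = 0.980), on as few as 2 reads in 1 library. The summed H2-Q genes other than H2-Q1 were at 687 CPM in vehicle 1 and 2170 to 2983 CPM in the other vehicle tumours, and at 2265 to 2914 CPM in palbociclib tumours. H2-Q10 made up most of that sum, at 539 to 2578 CPM in vehicle and 2048 to 2677 CPM in palbociclib tumours. H2-Q1 was 2.41% to 5.58% of all H2-Q reads in vehicle tumours and 4.51% to 13.4% in palbociclib tumours, ranges that overlapped. How the counting treated reads that fit more than 1 copy is not given in the sources used here.

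**Figure D3:**
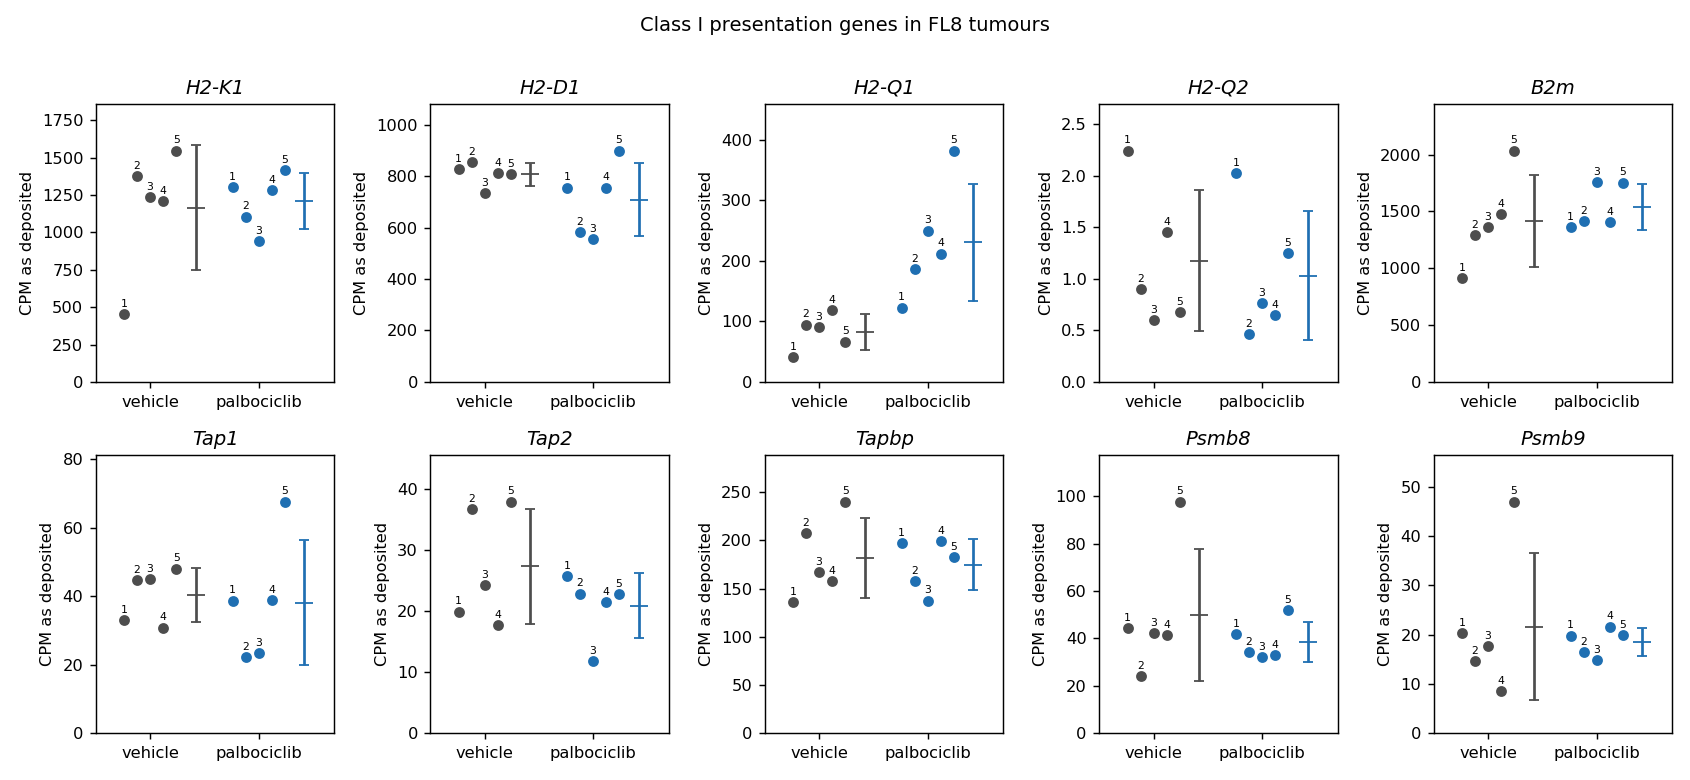
Level of each member in each tumour, in CPM as deposited (y axis), by treatment (x axis); points carry the replicate number and bars are the mean ± SD. H2-Q1 separates the treatments, and in the other 9 panels the groups overlap.

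The classical heavy chains were high in every tumour. H2-K1 was at 455, 1377, 1237, 1209 and 1548 CPM in vehicle tumours 1 to 5 and at 1306, 1106, 942, 1284 and 1419 CPM in palbociclib tumours, with vehicle 1 the lowest of all 10. Its log2 fold change was 0.15 ± 0.33 (SE; limma adjusted p = 0.966), and it was -0.16 without vehicle 1. H2-D1 was at 826, 854, 736, 811 and 810 CPM in vehicle tumours and at 755, 582, 555, 756 and 899 CPM in palbociclib tumours, with a log2 fold change of -0.21 ± 0.24 (SE; limma adjusted p = 0.957). B2m was at 911, 1288, 1365, 1475 and 2034 CPM in vehicle tumours and at 1362, 1412, 1761, 1407 and 1754 CPM in palbociclib tumours. Its log2 fold change was 0.16 ± 0.28 (SE; limma adjusted p = 0.962) on the deposited scale and -0.01 by edgeR on the recovered reads.

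The balance of reads of the classical heavy chains set vehicle 1 apart. Both genes are highly polymorphic, and how well reads of tumour and host alleles map to the reference genome was not tested. H2-D1 reads were 1.82 times those of H2-K1 in vehicle 1 and 0.523 to 0.671 times in the other 9 tumours. In the livers the same ratio was 0.225 to 0.334, but these data were processed separately and the experiments were not compared. Per 1000000 non-mitochondrial reads, vehicle 1 had 851 reads of H2-K1, where the others had 1007 to 1591, and 1548 reads of H2-D1, where the others had 594 to 947. The class II and macrophage sums given above were also highest in this tumour, and the summed leukocyte markers were at 67.9 CPM there against 2.71 to 8.69 CPM in the other 9 (4 of 8 markers in the table, without Cd3e, Cd8b1, Nkg7 and Klrd1). Their part in the ratio was not tested.

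**Figure D4:**
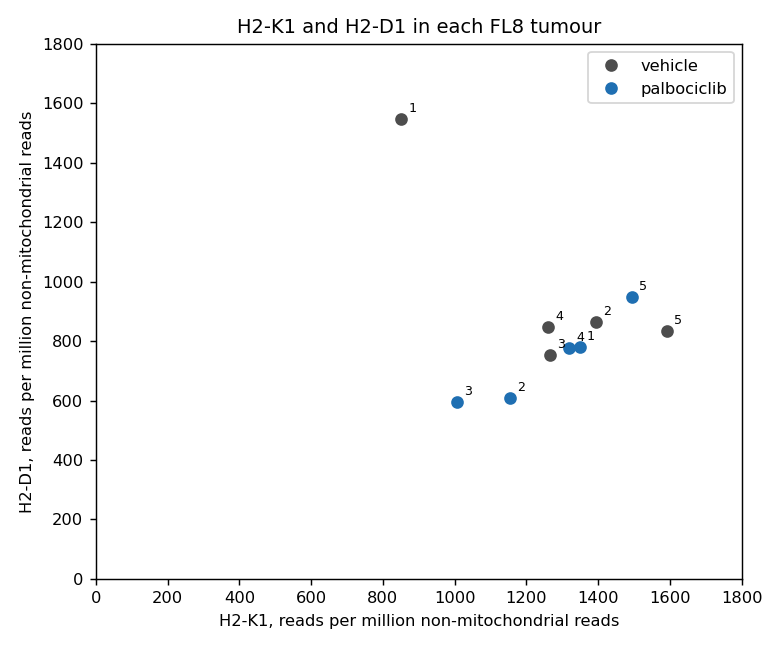
Reads of H2-D1 (y axis) against H2-K1 (x axis) per 1000000 non-mitochondrial reads in each tumour; labels are replicate numbers. Vehicle 1 lies at 851 for H2-K1 and 1548 for H2-D1, away from the other 9 tumours, which lie at 1007 to 1591 and 594 to 947.

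The transporter and loading genes did not separate the treatments. Tap1 was at 33.0, 44.7, 44.9, 30.8 and 48.0 CPM in vehicle and at 38.7, 22.1, 23.4, 38.8 and 67.6 CPM in palbociclib tumours, whose spread of 18.3 CPM (SD, n = 5) exceeded the difference of the means. Tap1 had a log2 fold change of -0.17 ± 0.30 (SE; limma adjusted p = 0.961). Tap2 was at 19.9, 36.7, 24.2, 17.7 and 37.9 CPM in vehicle and at 25.7, 22.8, 11.8, 21.4 and 22.7 CPM in palbociclib tumours. Its log2 fold change of -0.35 ± 0.29 (SE; limma adjusted p = 0.953) was the lowest of the 10. Tapbp was at 136 to 240 CPM in vehicle and 137 to 200 CPM in palbociclib tumours, with a log2 fold change of -0.04 ± 0.23 (SE; limma adjusted p = 0.987).

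Of the immunoproteasome subunits, Psmb8 was at 44.2, 24, 42.1, 41.3 and 97.8 CPM in vehicle and at 41.8, 34.2, 32.0, 32.8 and 51.8 CPM in palbociclib tumours. Its log2 fold change was -0.24 ± 0.31 (SE; limma adjusted p = 0.958), and it was 0.04 without vehicle 5, the shallowest library and the one with the most Psmb8. Psmb9 was at 20.3, 14.7, 17.6, 8.48 and 47.0 CPM in vehicle and at 19.8, 16.5, 14.8, 21.6 and 19.95 CPM in palbociclib tumours, again highest in vehicle 5. Its log2 fold change was -0.01 ± 0.35 (SE; limma adjusted p = 0.998), and 0.31 without vehicle 5. Apart from vehicle 5, the treatments covered similar ranges of Psmb8.

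The ratios to the constitutive subunits were lower on average in palbociclib tumours, and 1 of the 3 passed its test. Psmb8 over Psmb5 differed by -0.27 (two-sided exact permutation p = 0.333, adjusted p = 0.400) and Psmb9 over Psmb6 by -0.25 (exact permutation p = 0.532, adjusted p = 0.532), both on the log2 scale and with overlap. The log2 ratio of Psmb10 to Psmb7 was -0.19, -1.33, -1.26, -1.11 and -1.42 in vehicle tumours and -1.49, -1.94, -2.07, -1.44 and -1.65 in palbociclib tumours. The groups did not overlap, and the difference was -0.65 (exact permutation p = 0.00794, adjusted p = 0.0119 over 6 tests). Without vehicle 1, whose ratio was far above the others, it was -0.44 (exact permutation p = 0.0317, adjusted p = 0.0476). The log2 fold changes of Psmb10 and Psmb7 were -0.29 and 0.36, neither called (limma adjusted p = 0.953 for each). Of single genes 0.935% had no overlap between the treatments. How often ratios of other gene pairs separate these tumours was not measured. Whether a ratio differed between the experiments was not tested.

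**Figure D5:**
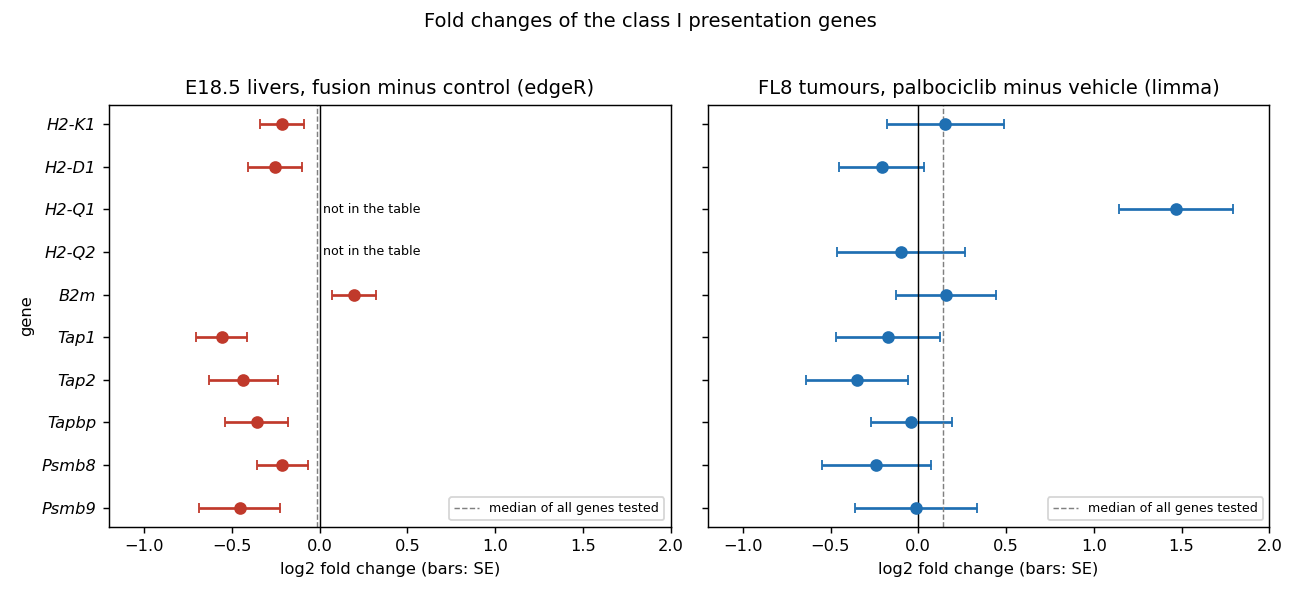
Log2 fold change of each member (x axis; bars are SE) in livers (left, edgeR) and tumours (right, limma on log2(CPM + 1)); the dashed line is the median of all genes tested. In the livers 7 of 8 members lie left of 0, and in the tumours H2-Q1 lies at 1.47 while the other 9 lie between -0.35 and 0.16.

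None of the other pathway lists had a gene past the threshold in the tumours with limma, or with edgeR or DESeq2 on the recovered reads. On the deposited scale, where 68.8% of all genes were positive, the 10 further loading and trimming factors had positive log2 fold changes (0.16 to 0.50), of which 10 stayed positive with TMM factors, 9 by edgeR on reads and 7 without vehicle 1. The 11 constitutive proteasome genes were positive as well (0.03 to 0.48), of which 9 stayed so with TMM factors, 9 by edgeR on reads and 10 without vehicle 1. The trimming peptidase Erap1 had the highest log2 fold change of the former, 0.50, at 22.9 ± 6.31 CPM in vehicle and 31.7 ± 3.00 CPM in palbociclib tumours (SD, n = 5 each), with no overlap and a limma adjusted p of 0.953. The 8 class II presentation genes were negative, with a median of -0.47, but without vehicle 1 the median of the 6 still tested was 0.31 and 5 were positive. Among 16 interferon-stimulated genes Isg15 had the smallest p: it was at 33.9, 27.9, 55.1, 23.6 and 31.8 CPM in vehicle and at 12.6, 12.3, 14.0, 12.7 and 27.8 CPM in palbociclib tumours, a log2 fold change of -1.08 ± 0.29 (SE; limma adjusted p = 0.953). Only palbociclib 5 reached the range of the vehicle tumours. Irf1 (-0.60) and Ezh2 (0.69) led the regulators, and Mr1 (0.44) and Hfe (-0.35) the further heavy chains, all at a limma adjusted p of 0.953. The hepatocyte markers were at a sum of 33944 CPM in vehicle 1 and 69482 to 104258 CPM in the other 9 tumours.

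The members varied together in the livers and less so in the tumours. Over the 9 livers 21 of 28 pairs of members had a positive Pearson r of log2(CPM + 1), with a median of 0.78, and the 7 negative pairs were those with B2m. The highest r was 0.98, of Psmb9 with Tap2. The mean of the members, centred for each gene, was highest in controls 1 to 3 (0.28, 0.28 and 0.20 on the log2 scale) and lowest in fusion 6 (-0.43). Over the 10 tumours 33 of 45 pairs were positive, with a median of 0.31, and the highest was 0.83, of Tapbp with Tap2. The non-member genes most like the members' mean were 2700046G09Rik (r = 0.99), Klhl22, A930013F10Rik, Kcnd1 and Thap3 (each r = 0.98) over the 9 livers, and Usp28, Pebp1 (each r = 0.91), the class I heavy chain H2-T22 (r = 0.90), Rnf6 (r = 0.90) and Tmem134 (r = 0.89) over the 10 tumours. These values describe libraries that share depth, batch and cell makeup, and the best of many genes is high by selection.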

How the data were processed

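Poly-A RNA of 9 embryonic livers and RNA of 10 allograft tumours was sequenced. For the livers the authors deposited raw counts per gene symbol; the submitters' processing notes name STAR 2.5.1b and DESeq2. For the tumours the authors deposited counts per 1000000 reads (CPM) per Ensembl ID; the notes name cutadapt 2.10, HISAT2, featureCounts, DESeq2 and R 4.1.2. The build is mm10 per the submitters' processing notes. Another 9 columns of per-sample values in the liver table were not used. The liver table holds no gene with fewer than 47 counts over all libraries, which may bear on the members not listed in it.

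Liver counts were tested with edgeR 4.0.16 (R 4.3.3; quasi-likelihood, TMM scaling, filterByExpr) and tumour CPM with limma 3.58.1 on log2(CPM + 1) with a trend, for genes with a mean CPM of at least 1. Fold changes of low genes are understated on that scale. Adjusted p-values are Benjamini-Hochberg over all genes tested, with a threshold of 0.05. CPM of the livers are after TMM. Every tumour value was a whole number of reads (100%, tolerance 0.001 of the value), and those reads entered edgeR and DESeq2 1.42.0 as alternatives. No label says that libraries of a group came from separate litters or batches, so p-values measure only the spread between these samples. A count of 3 reads corresponds to 0.0658 to 0.392 CPM in the livers and 0.0695 to 1.01 CPM in the tumours, for counting error only. Ratios of subunits were tested with two-sided exact permutation tests (Python 3.11.15 with numpy 2.4.6). Data were also simulated with a common dispersion for all genes and no batch or outlying library. On these edgeR called 200 of 200 genes changed 4-fold in the liver design (13280 genes), beside 16 unchanged genes. limma called 144 of 198 in the tumour design (12771 genes), beside 8 unchanged genes. The real libraries differ in these respects, so the shares do not carry over to them.

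Some genes of the lists are not reported here and were left out of them. The members and gene lists were chosen with earlier results of these data known. All members are named; of each other list up to 5 genes past the threshold or, with none, up to 2 by smallest unadjusted p, and the 5 genes most correlated with the members' mean. A few genes of those lists outside this rule (Fcgrt, H2-T23, H2-Q4, H2-Q10 and Irf1 in the livers) were chosen after their values were seen. Alternatives were other scalings, filters, pseudocounts, tools, covariates and left-out libraries. The fits within batches and without vehicle 1 and 5 were added after seeing the data. Of 17606 tumour IDs 17469 had a symbol in GENCODE M21. Promoter windows are from RefSeq (GRCm38.p6).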

Additional observations from a re-analysis of the deposited data

Results flagged for a closer look

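In groups of 4 or 5 libraries, 48 sets of values were screened for 1 library far from the rest, of which about 2.4 would stand apart by chance, and 2 did. Psmb8 was at 97.8 CPM in vehicle 5, the library of the lowest depth, and at 24 to 44.2 CPM in the other vehicle tumours. The log2 ratio of Psmb10 to Psmb7 was -0.19 in vehicle 1, the library with 46.6% mitochondrial reads, and -1.42 to -1.11 in the other vehicle tumours. The part of depth, of mitochondrial reads and of other cells in these values was not tested.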

How the results depend on the processing

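In the livers 1 member, Tap1, was called. The number was 4 with the library batch as a covariate, 2 within the batch of higher and 3 within that of lower ribosomal protein share, and 0 to 1 without single livers. The count over all genes, 1704, was 4345 with the batch as a covariate, 2589 and 2950 within the batches, and 969 to 1581 without single livers, lowest without control 3, without fusion 8 (987) and without fusion 7 (1107). In the tumours 0 members were called, and 1, H2-Q1, by DESeq2 on recovered reads, which called 8 genes. For Psmb10 over Psmb7 in the livers the difference was -0.87 to -0.66 without single livers, and the call was lost without fusion 6. In the tumours the same ratio kept its difference of -0.65 under a replicate block, where the exact sign-flip permutation test gave p = 0.0625, the smallest it can give for 5 pairs. Expression gave no sign that the replicate numbers pair the tumours, since 0 of 5 same-numbered pairs correlated above 0.1 (-0.32 to 0.0022). This check cannot exclude a pairing that left little mark on expression. The livers share no replicate numbers between groups, so that no paired fit was made there.

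Among tumour genes, none of which was called by limma, several signs turned. With edgeR and DESeq2 on recovered reads the log2 fold changes were -0.031 and -0.045 for H2-K1, -0.015 and -0.030 for B2m, -0.14 and -0.15 for Pdgfrb and -0.18 and -0.20 for Psmb5, and edgeR gave -1.08 for Cd68. Psmb5 was at -0.12 with TMM factors and at -0.12 without mitochondrial genes in the total. Without vehicle 1 and 5 the values were -0.086 for H2-K1, 0.0047 for H2-Q2, 0.12 for Psmb8, 0.46 for Psmb9, 0.0098 for Psme1, 0.25 for Ptprc and -0.12 for Hnf4a. Leaving out single tumours gave -0.16 to 0.28 for H2-K1, -0.25 to 0.0079 for H2-Q2, -0.14 to 0.067 for Tapbp, -0.46 to 0.037 for Psmb8, -0.27 to 0.31 for Psmb9, -1.05 to 0.060 for H2-Eb1, -0.60 to 0.41 for Ptprc, -0.093 to 1.24 for Cd68 and -0.13 to 0.25 for Psmb5. The cause was not tested. Depth limits H2-Q2, with as few as 2 reads in a library.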
